A study of Mus musculus with 13 samples.

Results

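The glypicans and syndecans are the 2 families of membrane-bound heparan sulfate proteoglycans, and 8 of their genes were followed here among the 25655 genes of the deposited tables. The members were chosen by name: the glypicans Gpc1, Gpc3, Gpc4 and Gpc6 and the syndecans Sdc1, Sdc2, Sdc3 and Sdc4. RNA was sequenced from 13 primary cultures of dermal fibroblasts of neonatal mice, and levels are given in TPM, a read share corrected for transcript length and scaled to the same total in every library. Set 2 held 3 cultures homozygous for the G234D allele of Fbn1 (Fbn1 G234D/G234D, M5 to M7) and 2 wild-type cultures (WT, W5 and W6). Set 1 held 4 homozygous cultures (M1 to M4) and 4 WT cultures (W1 to W4). No culture was treated, and strain and sex are not given in the labels. Fbn1 encodes fibrillin-1, the glycoprotein of dermal microfibrils, which binds heparan sulfate. Titles carry an animal number per culture, which divides set 1 into later animals (M3, M4, W3 and W4) and earlier animals (M1, M2, W1 and W2). The number of W1 is far lower than that of any other animal. This division was first made with values of these cultures known, and no label calls it a litter, a batch or a day.

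Glypicans are tied to the outer face of the membrane by a glycosylphosphatidylinositol anchor, whereas syndecans cross the membrane and have a short cytoplasmic tail. Both carry heparan sulfate chains, which hold growth factors such as FGFs, Wnts and Hedgehog proteins near their receptors. In fibroblasts syndecans also act with integrins in adhesion to fibronectin, and both families can be shed from the surface by proteases. RNA levels measure neither the core proteins nor their sugar chains.

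The labelled cell type was checked against marker genes. All 11 fibroblast markers were present, with a summed level of 23070 to 34240 TPM. Keratinocyte markers summed to at most 10.9 TPM and endothelial markers to at most 11.8 TPM, and Krt1, Krt15, Epcam, Cdh1, Trp63 and Dsp, of the keratinocyte list, and Pecam1, Tie1, Emcn, Vwf and Cldn5, of the endothelial list, stayed under 1 TPM in all 13 cultures. Each library had 11741 to 12042 genes at 1 TPM or more, libraries correlated at 0.991 to 0.998 over genes, and no pair was identical. Fbn1 averaged 542 ± 50.2 TPM in G234D cultures and 491 ± 42.8 TPM in WT cultures of set 1 (SD, n = 4 each). In set 2 it averaged 452 ± 32.2 TPM in G234D cultures (n = 3) and 405 ± 8.03 TPM in WT cultures (SD, n = 2). Over both sets Fbn1 differed by 0.15 on the log2 scale, G234D minus WT (unadjusted p = 0.0232, adjusted p = 0.742 in limma). The name G234D denotes a single amino acid substitution, so the amount of Fbn1 mRNA was not taken as a check of the labels.

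All 8 members were expressed in every culture, and all passed the filter on low values. Gpc4, a glypican that acts in Wnt signalling and whose human gene is mutated in Keipert syndrome, was the most abundant, with a mean level of 334 ± 29.6 TPM (SD, n = 13) and a range of 280 to 384 TPM. It ranked 426 of 11942 genes tested. A middle group followed, in the order Sdc1 (159 ± 14.5 TPM), Gpc1 (157 ± 18.6 TPM), Sdc3 (146 ± 27.8 TPM) and Sdc2 (115 ± 8.95 TPM). Sdc1 is best known from epithelia and plasma cells, Gpc1 as a co-receptor of FGF2, and Sdc2 as the syndecan of mesenchymal cells. Neighbours within this group overlapped in their ranges. The lowest group was Gpc6 (50.5 ± 5.29 TPM), Gpc3 (43.1 TPM, range 15.6 to 66.3 TPM) and Sdc4 (38.0 TPM, range 32.0 to 43.8 TPM), whose ranges also overlapped between neighbours. Over the 13 cultures, adjacent ranges were apart at 2 steps, between Gpc4 and Sdc1 and between Sdc2 and Gpc6. The order differed between the sets. In set 2 Gpc3 (59.8 TPM) lay above Gpc6 (46.9 TPM) in all 5 cultures, with ranges apart. In set 1 Gpc3 had the lowest mean of the members (32.6 TPM), and the ranges of Gpc6 and Sdc4 were apart. Of the remaining glypicans, Gpc2 lay at 10.2 to 14.9 TPM and Gpc5 at no more than 0.0970 TPM.

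**Figure D1:**
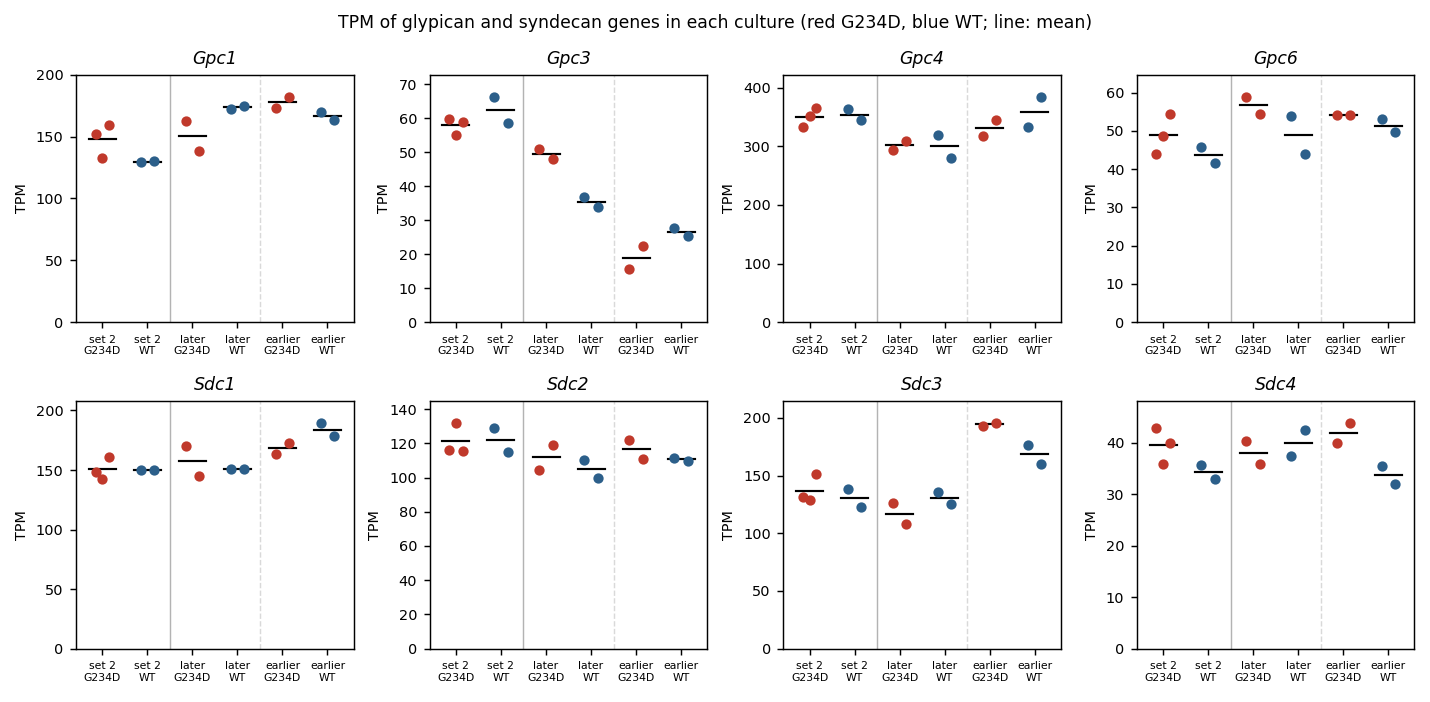
Level of each member in TPM (vertical axes, each starting at 0) in the 13 cultures, with G234D cultures in red, WT cultures in blue and a line at the mean of each group of cultures. Gpc3 and Sdc3 spread most: Gpc3 is lowest and Sdc3 highest in the earlier animals of set 1.

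The summed level of the glypicans, here including Gpc2 and Gpc5, was 598 ± 29.5 TPM and that of the syndecans 458 ± 39.3 TPM (SD, n = 13). Gpc4 made up 55.8% of the glypican sum, and its share stayed between 50.6% and 60.4% in all cultures. No syndecan led in this way: Sdc1 held 34.8%, Sdc3 31.5%, Sdc2 25.3% and Sdc4 8.35% of the syndecan sum. Members differed in how much they varied between cultures of the same set and genotype. The SD within these groups, on the log2(TPM + 1) scale, was 0.49 for Gpc3 and 0.29 for Sdc3, at the 97.6th and 91.1th percentile of all genes tested. The other 6 members lay between the 39.1th and the 62.9th percentile, around the median SD of 0.11.

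**Figure D2:**
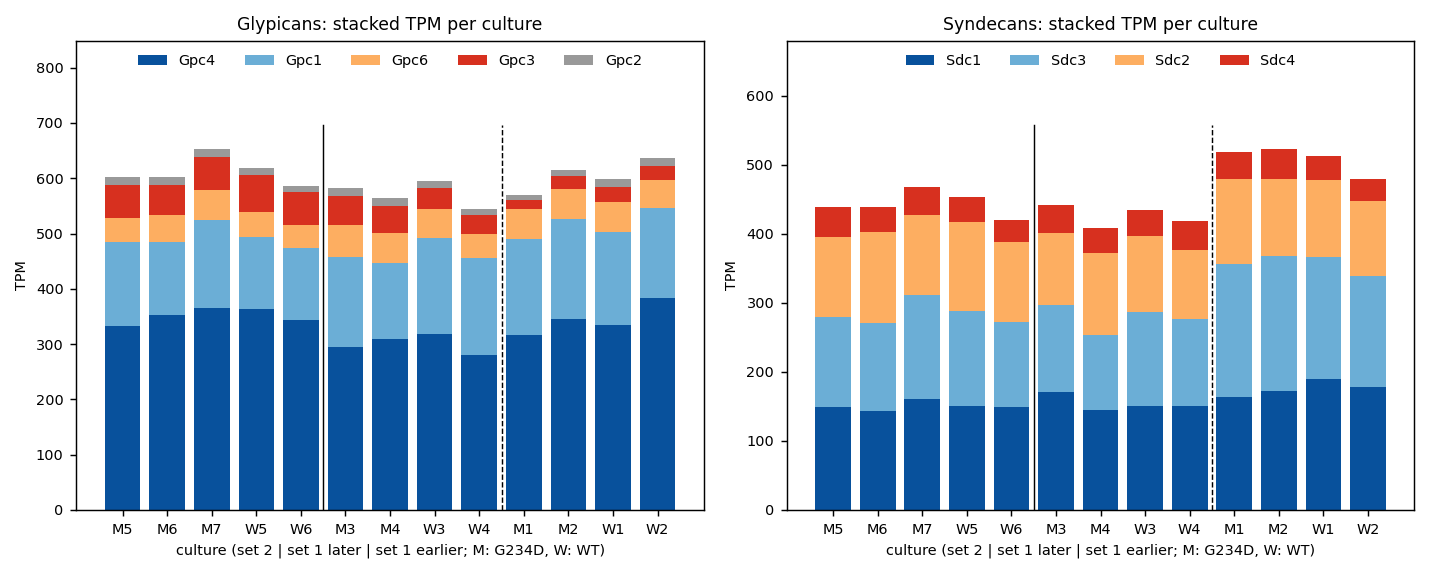
Stacked TPM of the glypicans (left) and syndecans (right) in each culture, in the order set 2, later and earlier animals of set 1, with G234D cultures (M) before WT cultures (W). Gpc4 is the tallest glypican block throughout, and the syndecan stack reaches 480 to 523 TPM in the earlier animals, against 408 to 442 TPM in the later animals.

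Whether the mutation changes these genes was tested as G234D minus WT with limma on log2(TPM + 1), in one fit of both sets that includes a term for the set. No member was called at an adjusted p under 0.05, and none of the 11942 genes tested was (0%), with a lowest adjusted p of 0.449. At an unadjusted p under 0.05 there were 2 of 8 members, Gpc6 and Sdc4, against 6.44% of all genes. The 95% intervals of all 8 members excluded a change of 1.5-fold or more in either direction, as did those of 94.6% of all genes. For Gpc3 this was by a narrow margin (-0.57 to 0.48): its interval reached past 1.5-fold on leaving out any single culture other than M1 or W3, and in set 1 alone it ran over -0.83 to 0.83. In cultures of mixed cells, fewer cells of a type and less RNA per cell cannot be told apart.

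Among the glypicans, Gpc6, whose human gene is mutated in omodysplasia, was the member with the smallest p. In set 1 its level was 54.2, 54.2, 58.8 and 54.5 TPM in the G234D cultures M1 to M4, against 53.0, 49.6, 53.9 and 43.9 TPM in the WT cultures W1 to W4. In set 2 it was 43.9, 48.6 and 54.4 TPM in the G234D cultures, against 45.8 and 41.7 TPM in the WT cultures. The genotypes did not overlap in set 1, where 4.16% of all genes did not, and they overlapped in set 2. Each of the 7 G234D cultures exceeded the mean of WT cultures in the same set. The fitted difference over both sets was 0.15 (SE 0.057, 95% interval 0.03 to 0.27, 1.11-fold), with an unadjusted p of 0.0192 and an adjusted p of 0.742 in limma.

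Gpc1 had 152, 133 and 159 TPM in the G234D cultures of set 2, against 129 and 130 TPM in its WT cultures. All 3 G234D cultures lay above both WT cultures, as 23.6% of all genes of set 2 were apart in one direction or the other. Macrophage and skeletal muscle markers were also higher on average in the G234D cultures of set 2, where 62.4% of all genes were higher. Of the tested Schwann cell and melanocyte markers 7 of 9 were higher, and of the pericyte and smooth muscle markers 3 of 6. For endothelial, keratinocyte and adipocyte markers it was 2 of 4, 1 of 3 and 0 of 2. Summed macrophage and leukocyte markers were 122 to 172 TPM in G234D and 109 to 110 TPM in WT cultures, with all 10 tested markers higher on average. All 11 tested skeletal muscle markers were higher on average too, but their sums overlapped, at 116 to 166 TPM in G234D and 108 to 121 TPM in WT cultures. None of these macrophage and muscle markers was called. At an unadjusted p under 0.05 in limma there were 3 of 10 and 4 of 11, against 6.48% of all genes. Their part in the levels of Gpc1 was not tested. The difference there was 0.19 (SE 0.075, unadjusted p = 0.0342, adjusted p = 0.750 in limma). In set 1 Gpc1 had 173, 182, 163 and 138 TPM in the G234D cultures and 170, 163, 172 and 175 TPM in the WT cultures, which overlapped, with a difference of -0.06. Over both sets it was 0.03 (SE 0.067, adjusted p = 0.961). Gpc4 averaged 316 ± 21.4 TPM in G234D and 329 ± 42.8 TPM in WT cultures of set 1 (n = 4 each), and 350 ± 16.5 TPM in G234D (n = 3) and 354 ± 13.8 TPM in WT cultures (n = 2) of set 2. These means differed by less than 1 SD, and the fit over both sets gave -0.04 (95% interval -0.17 to 0.09). Gpc3 gave -0.04 with an SE of 0.24, the largest SE of the members.

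Of the syndecans, Sdc4, a part of focal adhesions that acts through protein kinase C alpha, had 40.0, 43.8, 40.3 and 35.9 TPM in the G234D cultures of set 1, against 35.4, 32.0, 37.4 and 42.6 TPM in the WT cultures. In set 2 it had 42.8, 35.9 and 39.9 TPM in the G234D cultures, against 35.7 and 32.9 TPM in the WT cultures. The genotypes overlapped in set 1 and were apart in set 2, where M6 lay just above W5 and 23.6% of all genes were apart. The difference in set 2 was 0.20 (SE 0.083, unadjusted p = 0.0394, adjusted p = 0.760 in limma). Summed macrophage and leukocyte markers were also higher in the G234D cultures of set 2. Summed skeletal muscle markers overlapped there, at 116 TPM in M6 and 121 TPM in W5. The part of those cells was not tested. In all, 6 of 7 G234D cultures exceeded the mean of WT cultures in the same set. The difference over both sets was 0.15 (SE 0.066, 95% interval 0.01 to 0.29, unadjusted p = 0.0419, adjusted p = 0.765 in limma). Sdc1, Sdc2 and Sdc3 gave differences of -0.02, 0.05 and 0.04 over both sets, each smaller than its SE. M1 and M2 had high levels of markers of other cells, given with the animal groups; without both of them no gene was called, and the differences were 0.17 for Gpc6, 0.12 for Sdc4, 0.31 for Gpc3 and -0.15 for Sdc3, all uncalled.

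**Figure D3:**
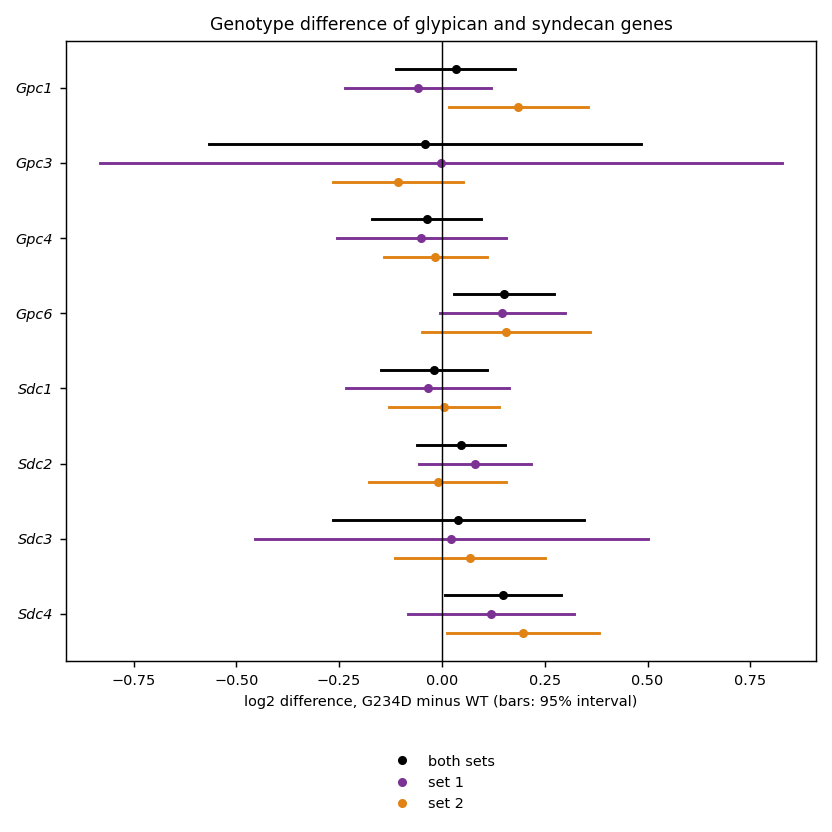
Fitted difference of each member, G234D minus WT, on the log2(TPM + 1) scale with 95% intervals, for the joint fit (black), set 1 (purple) and set 2 (orange). All differences lie between -0.11 and 0.20, and the intervals of Gpc3 and Sdc3 are the widest over both sets and in set 1.

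Within set 1 alone, 0 of 11905 genes were called (0%; 721 at an unadjusted p under 0.05, 6.06%), and the members had adjusted p values of 0.829 and above in limma. Within set 2, 1 of 12060 genes was called (0.00829%; 781 at an unadjusted p under 0.05, 6.48%) and no member was. The test of whether the genotype difference itself differed between the sets called 0 of 11942 genes (0%; 691 at an unadjusted p under 0.05, 5.79%). The largest such value among the members was that of Gpc1, 0.24 (SE 0.13, adjusted p = 0.869). These comparisons share cultures and are not independent of each other.

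Levels in the 2 sets were set side by side only, since set and any other difference between the 2 rounds cannot be told apart. Gpc3 was the one member whose ranges did not overlap, at 55.0 to 66.3 TPM in set 2 and 15.6 to 51.1 TPM in set 1. Of all genes, 17.2% were apart in this way. The sets also differed in Y-linked expression, which separates male from female cultures. It summed to 0 in set 2 and to 129 to 142 TPM in W1, M1, M2, M3 and W3 of set 1. Its part in the set levels of Gpc3, an X-linked gene, was not tested.

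Within set 1, 2 members followed the animal numbers: Gpc3 was higher and Sdc3 lower in the later animals. Gpc3 is a glypican that restrains growth and Hedgehog signalling, and its loss in humans causes the Simpson-Golabi-Behmel overgrowth syndrome. It had 51.1 and 48.2 TPM in M3 and M4 and 36.9 and 33.9 TPM in W3 and W4, against 15.6 and 22.4 TPM in M1 and M2 and 27.7 and 25.4 TPM in W1 and W2. The 4 later cultures all lay above the 4 earlier ones, and the G234D cultures held both extremes. The mean was 42.5 ± 8.39 TPM in later animals and 22.8 ± 5.25 TPM in earlier animals (SD, n = 4 each).

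Sdc3, known best from the nervous system and from muscle satellite cells, ran the other way. It had 126 and 108 TPM in M3 and M4 and 136 and 126 TPM in W3 and W4, against 193 and 195 TPM in M1 and M2 and 177 and 160 TPM in W1 and W2. Again the groups did not overlap, and the G234D cultures held both extremes. The mean was 124 ± 11.8 TPM in later animals and 181 ± 16.5 TPM in earlier animals (SD, n = 4 each).

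With genotype as a covariate, limma called 850 of 11905 genes between later and earlier animals (7.14%), 332 higher (2.79%) and 518 lower (4.35%) in later animals. Of the 8 members 2 were called, and 4 had an unadjusted p under 0.05, against 26.7% of all genes. Gpc3 was 1.84-fold higher in later animals (log2 difference 0.88, SE 0.21, 95% interval 0.40 to 1.36, adjusted p = 0.0477). Sdc3 fell by 0.55 on the log2 scale in later animals (SE 0.085, 95% interval -0.74 to -0.35, adjusted p = 0.0173). Ranges were apart for 15.4% of all genes in this split. Gpc3 stood at the edge of the threshold: its adjusted p was 0.0650 without W1, between 0.0597 and 0.150 without each of M1, M2, M3, M4, W2 and W3, and 0.0415 without W4. For Sdc3 it was 0.0563 without M1 and 0.0753 without M2, and under the threshold without each other culture. With same-numbered cultures averaged into pairs, which leaves 2 pairs a side, Gpc3 and Sdc3 were called (adjusted p = 0.000175 and 0.000708 in limma). Sdc1 and Gpc4 were called too (0.0280 and 0.0477). This fit was added after seeing the data and called 2033 genes instead of 850. Each pair averages a G234D and a WT culture of the same animal group, so opposite genotype differences do not enter its spread. It is therefore no independent check of the calls. Without pairing, Sdc1 (-0.19, adjusted p = 0.0889) and Gpc4 (-0.20, adjusted p = 0.0886) were not called, and without M3 Sdc1 was (-0.25, adjusted p = 0.0286). Gpc1, Gpc6, Sdc2 and Sdc4 differed by -0.09, -0.01, -0.07 and 0.05.

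Relative to each other, Sdc3 had 3.03 ± 0.781 times the TPM of Gpc3 in later animals and 8.44 ± 2.87 times in earlier animals (SD, n = 4 each), with 12.4 times in M1. In set 2 the ratio was 2.26 ± 0.202 (SD, n = 5). Gpc3 held 7.43% of the glypican sum in later and 3.75% in earlier animals, and Sdc3 held 29.1% of the syndecan sum in later and 35.6% in earlier animals. The syndecan sum was 426 ± 15.2 TPM in later and 509 ± 19.5 TPM in earlier animals.

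Markers of other cells moved with the same split. Summed pericyte and smooth muscle markers (7 of 7 genes present) were 160 to 164 TPM in M3 and M4 and 199 to 225 TPM in W3 and W4, against 284 to 299 TPM in M1 and M2 and 244 to 273 TPM in W1 and W2. Adipocyte markers (2 of 6 genes reached 1 TPM; Adipoq, Plin1 and Lep stayed under it and Cidec was listed at 0) were 127 to 133 TPM in M3 and M4 and 69.2 to 82.3 TPM in W3 and W4, against 43.3 to 44.6 TPM in M1 and M2 and 44.8 to 49.7 TPM in W1 and W2. Both lists separated later from earlier animals. Most of the adipocyte sum was Lpl, which averaged 85.4 TPM over the 13 cultures, beside 10.3 TPM for Fabp4.

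M1 and M2 also stood apart from the rest of set 1 in markers of further cell types. Macrophage and leukocyte markers (11 of 13 genes reached 1 TPM; Ptprc and Cx3cr1 did not) summed to 169 and 224 TPM in M1 and M2, against 36.0 to 99.2 TPM in the other 6 cultures of set 1; in set 2 they reached 172 TPM in M5, as high as in M1. Schwann cell and melanocyte markers (10 of 12 genes reached 1 TPM) summed to 140 TPM in each of M1 and M2, against 23.0 to 48.2 TPM. Skeletal muscle markers (11 of 14; Myf5, Pax7 and Ckm stayed under 1 TPM) summed to 487 and 375 TPM, against 73.8 to 185 TPM. The part of these cells in the levels of Gpc3 and Sdc3 was not tested. Summed Y-linked expression, which separates male from female cultures, was 129 to 142 TPM in W1, M1, M2, M3 and W3, 0.624 TPM in M4 and 0 in W2, W4 and set 2. With it as a covariate Gpc3, an X-linked gene, had the same direction (0.87) and an adjusted p of 0.0941.

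Gpc3 and Sdc3 are shown by their sequence because they are the members that differed in opposite directions. On mm10, with GENCODE release M21, Gpc3 spans X:52272426-52613950 on the minus strand and Gpc4 X:52053021-52165252 on the same strand, 107 kb away. Sdc3 spans 4:130792537-130826319 on the plus strand. Gpc1 lies at 1:92831645-92860779 (plus), Gpc6 at 14:116925315-117976544 (plus), Sdc1 at 12:8771323-8793715 (plus), Sdc2 at 15:32920723-33034935 (plus) and Sdc4 at 2:164424247-164443887 (minus). All are protein-coding. Ankmy1, on the opposite strand, overlaps Gpc1 and had at most 0.204 TPM. The 250 bases before the start are given 5′ to 3′ on the gene's strand, from RefSeq on GRCm38.p6, with GC boxes (GGGCGG on either strand) in capitals; they are chrX:52613975-52614224 (minus) for Gpc3 and chr4:130792287-130792536 (plus) for Sdc3.
Gpc3: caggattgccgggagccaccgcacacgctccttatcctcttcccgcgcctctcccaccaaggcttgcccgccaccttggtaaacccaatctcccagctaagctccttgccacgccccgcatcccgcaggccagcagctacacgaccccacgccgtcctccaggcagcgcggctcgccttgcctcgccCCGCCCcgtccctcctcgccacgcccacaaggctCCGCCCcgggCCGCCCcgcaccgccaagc
Sdc3: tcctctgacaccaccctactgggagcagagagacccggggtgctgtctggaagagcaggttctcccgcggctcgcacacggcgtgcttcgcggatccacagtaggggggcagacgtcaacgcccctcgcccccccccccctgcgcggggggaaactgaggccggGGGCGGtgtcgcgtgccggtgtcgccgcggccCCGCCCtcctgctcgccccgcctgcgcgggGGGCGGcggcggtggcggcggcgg
Both are rich in G and C, at 71.6% for Gpc3 and 76.4% for Sdc3 against a median of 52.4% over all promoters of the table, and hold 25 and 32 CpG pairs against a median of 6. Each holds 3 GC boxes, and at least 1 is found in 32.7% of 32851 promoters. The other members with an entry are alike in this: Sdc1 holds 3, Sdc4 4 and Gpc4 1, at 66.0%, 68.0% and 68.4% G and C. None of the 5 members with an entry (Gpc3, Sdc3, Gpc4, Sdc1 and Sdc4) holds the letters TATAAA, found in 12.4% of promoters, on either strand. Counting either strand, CCAAT is present in Gpc3 and Sdc1 and not in Sdc3, Gpc4 or Sdc4 (33.8% of promoters). TGACG is present in Sdc3 on the opposite strand only, where the printed strand reads CGTCA. It is not in Gpc3 (17.8% of promoters). CACGTG (6.02% of promoters) and TGACTCA (4.46%) are in neither window.

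The genotype difference was then set out in each animal group, which leaves 2 cultures a side. Gpc3 in G234D cultures was above WT in later animals (0.48, SE 0.14) and below it in earlier animals (-0.48, SE 0.14). The difference between the groups was 0.96 (SE 0.20, 95% interval 0.49 to 1.43), with an unadjusted p of 0.00160 and an adjusted p of 0.0532 in limma. Leaving out 1 culture at a time gave 0.71 to 1.21 for Gpc3. The highest value came without M2, which leaves M1 as the only G234D culture of the earlier animals. Sdc3 was the reverse, at -0.16 in later and 0.21 in earlier animals (difference -0.37, SE 0.11, adjusted p = 0.114), and Gpc1 gave -0.21 and 0.09 (difference -0.30, SE 0.10, adjusted p = 0.147). Leaving out 1 culture at a time gave -0.48 to -0.26 for Sdc3 and -0.42 to -0.18 for Gpc1. Both were farthest from 0 without M3, which leaves M4 as the only G234D culture of the later animals. Sdc4 gave -0.07 in later and 0.31 in earlier animals (difference -0.38, SE 0.13, adjusted p = 0.142). Thus 0 of 8 members were called for this difference, against 334 of 11905 genes (2.81%); at an unadjusted p under 0.05 there were 4 members, against 20.1% of all genes. Within the later animals 32 genes were called (0.269%) and within the earlier animals 467 (3.92%), with no member in either. At an unadjusted p under 0.05 there were 3 members in each, against 12.4% of all genes in later and 21.6% in earlier animals. The marker sums that set M1 and M2 apart move with the earlier comparison, and their part in it was not tested.

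**Figure D4:**
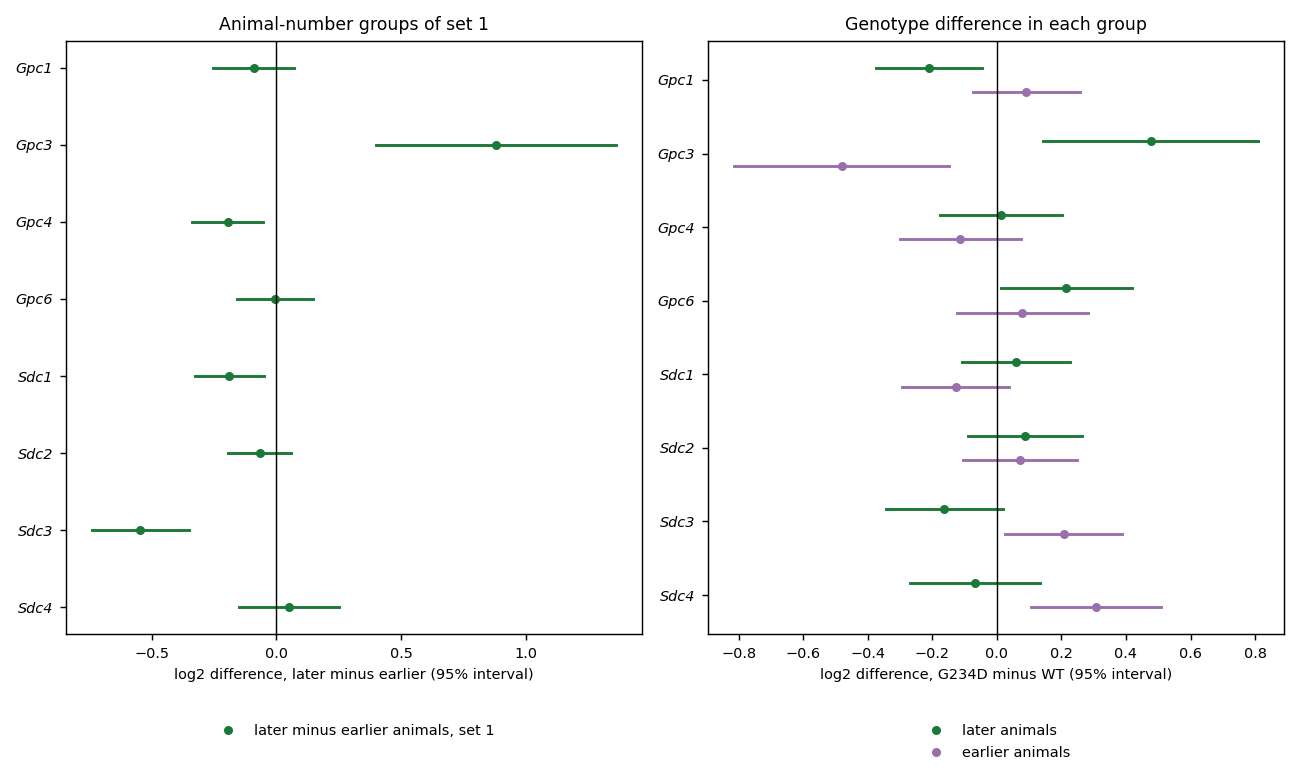
Left, fitted log2 difference of each member between later and earlier animals of set 1; right, the G234D minus WT difference in later (green) and earlier (purple) animals, with 95% intervals. Gpc3 (0.88) and Sdc3 (-0.55) lie farthest from 0 on the left, and on the right Gpc3 takes opposite signs in the 2 groups (0.48 and -0.48).

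The wider heparan sulfate system was followed in 118 further listed genes, chosen with results of these data known, of which 97 were tested. None was called for genotype in the joint fit or within either set (background 0%, 0% and 0.00829%). Their median difference over both sets was 0.03, beside 0.01 over all genes tested. Among the enzymes that build the chains, Ext2 (95.7 ± 5.16 TPM), Ext1 (67.2 ± 3.83 TPM), which polymerise heparan sulfate, and B3gat3 (52.3 ± 2.66 TPM), which completes the linker to the core protein, were the most abundant (SD, n = 13). Hs6st1 (240 ± 34.2 TPM), Hs6st2 (87.0 ± 21.9 TPM) and Glce (74.9 ± 9.13 TPM) led the modifying enzymes, which add sulfate or invert uronic acids. Ugdh (126 ± 14.0 TPM), Ugp2 (85.1 ± 7.93 TPM) and Papss1 (68.5 ± 2.27 TPM) led the supply of sugar and sulfate donors.

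Between later and earlier animals, 2 of the 97 were called higher and 11 lower in later animals (13.4% in all, against 7.14% of all genes), with a median difference of -0.08, beside -0.02 over all genes. The higher ones were Tgfbr3, betaglycan, a co-receptor of TGF-beta that can carry heparan sulfate (54.0 ± 4.47 TPM in later and 31.4 ± 1.67 TPM in earlier animals, log2 difference 0.76, adjusted p = 0.00511), and the growth factor Fgf10 (5.51 ± 0.647 TPM in later and 2.28 ± 0.214 TPM in earlier animals, 0.99, adjusted p = 0.00576). Among the lower ones, Nrp1, neuropilin-1, had 74.2 ± 5.38 TPM in later and 108 ± 7.94 TPM in earlier animals (-0.54, adjusted p = 0.00845). The sulfotransferase Hs6st2 had 74.2 ± 8.70 TPM in later and 116 ± 9.01 TPM in earlier animals (-0.65, adjusted p = 0.0123). Wnt5a, a heparan sulfate binding ligand, had 53.8 ± 8.31 TPM in later and 81.3 ± 7.09 TPM in earlier animals (-0.60, adjusted p = 0.0299). The remaining lower genes were the sulfotransferase Hs3st3b1 (-0.43), the linker kinase Fam20b (-0.17), the metalloproteases Mmp9 (-1.21) and Mmp16 (-0.58), their inhibitor Timp3 (-0.51), the actin cross-linker Actn1 (-0.32), and the ligands Hbegf (-0.33) and Wnt11 (-0.46). The pericyte and adipocyte marker sums given above divide the cultures in the same way, and their part in these levels was not tested.

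In the test of whether the genotype difference differed between later and earlier animals, 6 of the 97 were called (6.19%, against 2.81% of all genes). The Hedgehog co-receptors Gas1 (1.08, adjusted p = 0.00157) and Cdon (0.63, adjusted p = 0.0360) were higher. Col18a1, a matrix heparan sulfate proteoglycan (-1.02, adjusted p = 0.00194), Cd44 (-0.77, adjusted p = 0.0163), Ccn2 (-0.85, adjusted p = 0.0134) and the lysosomal glucuronidase Gusb (-0.36, adjusted p = 0.0483) were lower. Col18a1 had 70.4 and 64.4 TPM in M3 and M4 and 53.9 and 58.0 TPM in W3 and W4, against 119 and 122 TPM in M1 and M2 and 49.8 and 47.6 TPM in W1 and W2. Cd44 had 143 and 166 TPM in M3 and M4 and 214 and 212 TPM in W3 and W4, against 287 and 249 TPM in M1 and M2 and 210 and 221 TPM in W1 and W2. Both were highest in M1 and M2. In the same test all 7 Schwann cell and melanocyte markers were lower with 6 called, and all 10 skeletal muscle markers were lower with 1 called. All 8 macrophage markers were lower with none called. At an unadjusted p under 0.05 in limma there were 9 of the muscle and 4 of the macrophage markers, against 20.1% of all genes. Called higher were 2 of 11 fibroblast markers and 1 of 2 adipocyte markers. Their part in these differences was not tested.

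Likeness of pattern was measured as Pearson's r of log2(TPM + 1) less the set mean over the 13 cultures, among 11518 genes. These values share library and composition, and no test was made on them. Gpc3 was most like Sfrp2, a secreted Wnt modulator (r = 0.977), and Gas1 (r = 0.967). Sfrp2 had 47.4, 36.8, 21.4 and 21.7 TPM in M3, M4, W3 and W4, against 5.34, 9.23, 16.6 and 9.75 TPM in M1, M2, W1 and W2. Gas1 had 264, 255, 205 and 188 TPM in the same later cultures, against 94.0, 101, 161 and 153 TPM in the earlier ones. Both were low in M1 and M2 and high in M3 and M4, as Gpc3 was. Sdc3 was most like Ptpn11, the phosphatase SHP2 (r = 0.982), and Nrp1 (r = 0.979), both lower in each later culture than in any earlier one. For the others the first names were Baz2b (r = 0.922) and Egln3 (r = 0.909) for Gpc1, Fam216a (r = 0.880) and Arhgef28 (r = 0.878) for Gpc4, and Hoxc4 (r = 0.924) and Lhfpl2 (r = 0.902) for Gpc6. Sdc1 was most like Ptar1 (r = 0.966) and Hic1 (r = 0.959), Sdc2 like Fig4 (r = 0.862) and Sgsh (r = 0.859), and Sdc4 like Lhx8 (r = 0.843) and St3gal1 (r = 0.842).

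**Figure D5:**
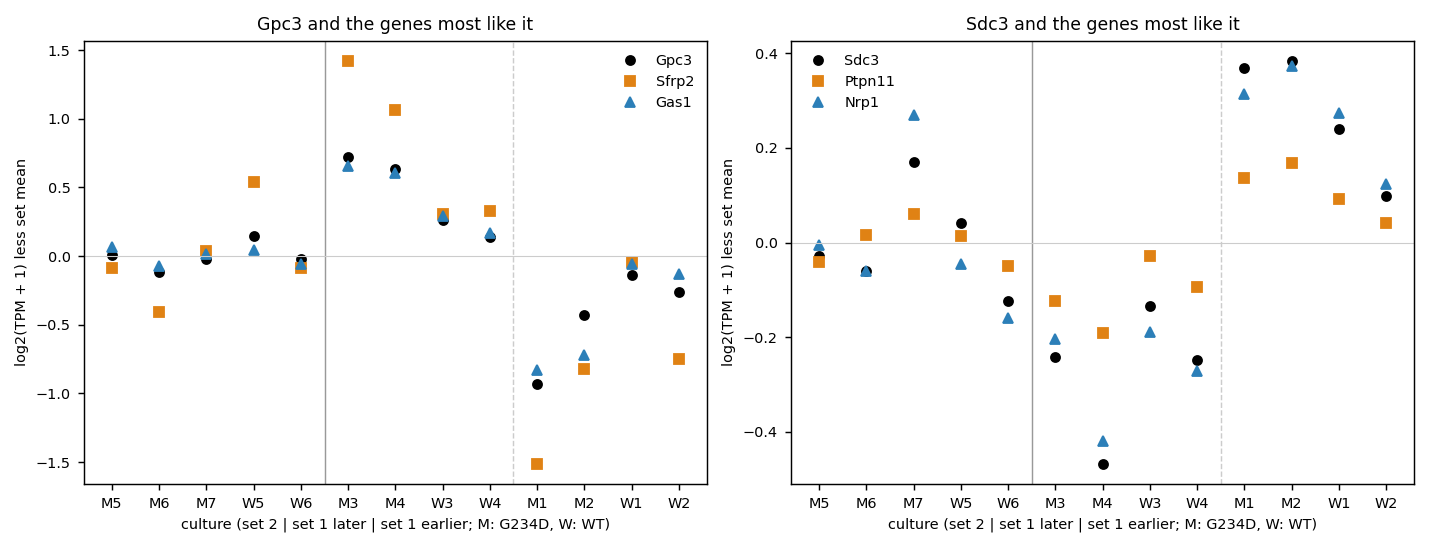
Values of log2(TPM + 1) less the set mean (vertical axes) in each culture for Gpc3 with the genes most like it (left) and Sdc3 with the genes most like it (right). In set 1 Gpc3, Sfrp2 and Gas1 lie highest in M3 and M4 and lowest in M1 and M2, and Sdc3 and Nrp1 lie lowest in M4 and highest in M2.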

How the data were processed

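Total RNA of 13 cultures was made into directional libraries, per the labels' protocols; the submitters' processing notes name the build mm10, while aligner, counter and annotation release are not stated in the labels or headers. The authors deposited TPM, as the file headers name them, summing to 1e+06 in each library. TPM carry no read totals, so depth is unknown and no counting interval is given. They were transformed to log2(TPM + 1), and a gene was kept when 6 libraries (4 for set 1 alone, 2 for set 2 alone) reached 1 TPM. Differences were tested with limma 3.58.1 in R 4.3.3 (trended, robust), and p values were adjusted by Benjamini-Hochberg over all genes kept; genes under 0.05 were called. The p values set each fitted difference against the spread between cultures. Fold changes on this scale understate those of low genes. Nothing in the labels says how cultures relate to animals beyond 1 number each. The members, lists, animal-number groups and tests were chosen with earlier results of these data known. Named genes were Fbn1, the members, the 3 most abundant and the called genes of each list, and the 2 genes most like each member; not all of the most abundant ones are printed. On simulated data for the comparison over both sets (11942 genes), 96% of genes changed by 1.5-fold were recovered. For later minus earlier animals (11905 genes) the share was 94%, for set 1 (11905 genes) 86% and for set 2 (12060 genes) 66%, and 3.63%, 5.88%, 3.41% and 2.03% of calls fell on unchanged genes, in that order. In these simulations the changed genes were drawn from the more abundant ones, 50 at each of several fold sizes, with noise independent between genes. The shares are averages over such genes and do not give the recovery for a member as variable as Gpc3. Of 25655 gene IDs, 25600 matched GENCODE M21. Same-numbered cultures of set 1 deviated together (r 0.327, 0.198, 0.259 and 0.279, all over 0.1). The numbers were therefore treated as pairing them in alternative fits, though no label says why. Same-numbered cultures also share the animal group, and M2 and M4 correlated best with W1 and W3. In set 2 same-numbered cultures did not deviate together (r -0.148 and 0.00965). Alternatives were another pseudocount, other filters and scalings, a fit that was not robust, covariates, the replicate block and leaving out cultures.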

Additional observations from a re-analysis of the deposited data

Results flagged for a closer look

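Gpc6 in M3 (58.8 TPM) lay apart from the other 3 G234D cultures of set 1, which had 54.2 to 54.5 TPM; its gap was 0.928 of the range, above Dixon's critical value of 0.829. Of 16 groups of 4 cultures tested, chance flags about 1 in 20. In 3 members every G234D culture of the later animals lay on one side of the WT cultures' mean and every G234D culture of the earlier animals on the other. The share of all genes that do so was not counted, so these 3 members cannot be set against a background. The genotype difference in later minus that in earlier animals was 0.96 for Gpc3 (adjusted p = 0.0532), -0.37 for Sdc3 (adjusted p = 0.114) and -0.30 for Gpc1 (adjusted p = 0.147) in limma, each short of the threshold.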

How the results depend on the processing

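TPM carry no depth, so counting error is unknown, and 2 cultures a side limit every comparison within an animal group. Of the alternatives' log2 differences 719 kept direction and side of the threshold, 74 changed sign, 13 lost a call and 10 gained one; no genotype call of a member was gained over both sets or within a set. The cause of the changes was not tested. With the replicate block, which pairs same-numbered cultures, set 1 had 1 gene called instead of 0 and set 2 had 21 instead of 1. M7 has no same-numbered WT culture, so the set 2 difference there comes from M5, M6, W5 and W6 alone. Sdc1 gave -0.0422, Sdc2 0.0215 and Sdc3 -0.00433 in set 2, the same values as on leaving out M7. The replicate block changed no genotype call of a member. With same-numbered pairs as the unit, 2033 genes and 4 members were called between later and earlier animals, instead of 850 and 2, and 189 genes and 0 members for the genotype difference in later minus earlier animals, instead of 334 and 0 (adjusted p = 0.0877 for Gpc3); both fits were added after seeing the data. Set 2 had 0 genes called with no filter and 0 at 10 TPM, and set 1 had 1 with the animal group as a covariate. Sdc1 in set 2 was -0.0295 and -0.00537 under median-of-ratios and quantile scaling, the difference between sets of Gpc6 -0.0151 and -0.0210, and Gpc6 later minus earlier 0.0218 and 0.00960 (0.0258 with the Y-linked covariate). Over both sets Gpc3 was 0.0487 with no set term, 0.00524 with Y-linked expression and 0.306 without M1 and M2; Sdc3 was -0.0183 with Y-linked expression and -0.148 without M1 and M2, where Gpc1 was -0.00651. Between later and earlier animals 1 member (Sdc3) was called instead of 2 with a pseudocount of 0.1, no filter, a filter at 10 TPM or the Y-linked covariate, where Gpc3 had adjusted p values of 0.0502, 0.0629, 0.0522 and 0.0941; genes called were 269 with no filter and 227 with the covariate. For the genotype difference in later minus earlier animals, 1 member (Gpc3) instead of 0 was called at 10 TPM, under median-of-ratios or quantile scaling and in the fit that was not robust (adjusted p = 0.0494, 0.0470, 0.0425 and 0.0433), and 139 genes instead of 334 with no filter. These alternatives to the animal-group difference and the Y-linked covariate there were added after seeing the data. Leaving out 1 culture at a time changed a sign or a call of some members, whose differences ranged as follows. Over both sets they were Gpc3 -0.186 to 0.137, Gpc4 -0.0796 to 0.00894, Sdc1 -0.0464 to 0.0176, Sdc3 -0.0319 to 0.135. In set 1 they were Gpc1 -0.111 to 0.0211, Gpc3 -0.242 to 0.307, Gpc4 -0.124 to 0.0266, Sdc1 -0.0825 to 0.0263, Sdc3 -0.102 to 0.182. In set 2 they were Gpc4 -0.0558 to 0.0233, Sdc1 -0.0422 to 0.0435, Sdc2 -0.0906 to 0.0703, Sdc3 -0.0152 to 0.151. Between the sets they were Gpc3 -0.414 to 0.136, Gpc4 -0.0428 to 0.108, Gpc6 -0.0692 to 0.0830, Sdc1 -0.0212 to 0.0877, Sdc3 -0.114 to 0.170. For later minus earlier animals they were Gpc3 0.684 to 0.9999, Gpc6 -0.0503 to 0.0652, Sdc1 -0.255 to -0.154, Sdc3 -0.611 to -0.463, Sdc4 -0.0217 to 0.122. For the genotype difference in later minus earlier animals they were Gpc1 -0.420 to -0.182, Gpc3 0.708 to 1.21, Gpc6 -0.00805 to 0.281, Sdc2 -0.0794 to 0.111, Sdc3 -0.484 to -0.258. Genes called ranged over 0 to 2 in set 1 (2 without M4), 0 to 14 in set 2 (14 without M6, 2 without M7, 0 without W5 or W6) and 0 to 1 between the sets (1 without M5). Between later and earlier animals 36 to 855 genes were called (276 without W1, 92 without M1, 36 without M2, 361 without M3, 289 without M4, 493 without W3), with 0 to 2 members (0 without M1 or M2). For the genotype difference in later minus earlier animals 46 to 690 genes were called (78 without W1, 46 without M1, 69 without W2, 690 without M3, 179 without W3, 61 without W4), with 0 to 2 members (1 without M2, 2 without M3).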
